A study of Homo sapiens with 9 samples.

Results

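The mRNAs of 10 enzymes that make serine and carry its one-carbon unit on folate were followed in HCCLM3 cells, a human hepatocellular carcinoma line. They were chosen with earlier results of these data known. Their rows were taken by gene symbol from the deposited table, and all 10 were found among its 20379 genes. PHGDH, PSAT1 and PSPH make up serine synthesis in the cytosol. SHMT1, MTHFD1 and ALDH1L1 are the cytosolic folate enzymes, and SHMT2, MTHFD2, MTHFD1L and ALDH1L2 are the mitochondrial ones. After filtering on low counts, 8 of the 10 could be tested, while MTHFD2 and ALDH1L1 had too few reads.

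Serine is made from the glycolytic intermediate 3-phosphoglycerate. PHGDH oxidises it, PSAT1 adds the amino group and PSPH removes the phosphate. The serine hydroxymethyltransferases then split serine into glycine and a one-carbon unit bound to tetrahydrofolate. In mitochondria the unit is oxidised to formate, which leaves for the cytosol and is used there to build purines and thymidylate. Proliferating cells commonly run this cycle in that direction, and the cytosolic enzymes can also run it on their own. The transcription factor ATF4, active in the response to amino acid shortage and to mitochondrial stress, is known to bind and activate several of these genes.

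The study had 3 groups of 3 libraries of poly(A) RNA. Cells were transfected with siRNA against UXS1, the enzyme that makes UDP-xylose, with siRNA against MRPL42, a protein of the mitochondrial ribosome, or with a non-targeting siRNA as control. All groups are the same unedited line, and the labels name no other treatment, no siRNA sequence and no time after transfection. Whether the 3 libraries of a group were grown and transfected independently is not stated, and the p-values below reflect only how far these libraries scatter, which could be technical scatter. The table marks the libraries of each group a, b and c, and those letters are used for them.

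The 9 libraries held 15265959 to 22400560 estimated counts, and 12657 genes were tested. Control library c stood apart: across genes its log2 CPM (counts scaled to a common library size by TMM) correlated with the other libraries at r = 0.956 to 0.967, against 0.985 or more among the other 8. In it, 195 genes lay over 4-fold from both other controls in the same direction, against 4 to 11 genes in each other library by the same count. Neither target was called lower. UXS1 mRNA had 145, 138 and 141 CPM in UXS1 siRNA libraries, against 144, 151 and 180 CPM in control libraries (log2 fold change -0.17, edgeR adjusted p = 0.348, and -0.08 without control library c, edgeR adjusted p = 0.519). MRPL42 mRNA had 104, 93.0 and 81.8 CPM in MRPL42 siRNA libraries, against 100, 118 and 147 CPM in control libraries (log2 fold change -0.39, edgeR adjusted p = 0.185, and -0.23 without control library c, edgeR adjusted p = 0.263). In UXS1 siRNA libraries it had 131, 115 and 126 CPM, above every MRPL42 siRNA library. That difference was not called (UXS1 over MRPL42 siRNA 0.41, and 0.40 without control library c, edgeR adjusted p = 0.841). For UXS1 mRNA the same comparison gave -0.07, and -0.08 without control library c, not called. Of 16 hepatocyte markers 12 were tested, and the list summed to 6880 to 7220 CPM with UXS1 siRNA, to 6430 to 8470 CPM with MRPL42 siRNA and to 6200, 5890 and 7330 CPM in control libraries a, b and c. Relative to each gene's own mean over the 9 libraries, the 12 tested genes stood at a mean log2 CPM of -1.15 in control library c, against 0.01 to 0.21 in the other 8. FGG, fibrinogen gamma chain, had 16.9 to 19.9 CPM with UXS1 siRNA, 11.5 to 15.1 CPM with MRPL42 siRNA and 16.8, 19.0 and 0 CPM in control libraries a, b and c. APOH, a plasma apolipoprotein, had 43.6 to 45.8 CPM with UXS1 siRNA, 38.4 to 43.7 CPM with MRPL42 siRNA and 51.1, 47.5 and 56.2 CPM in the control libraries. ALB, albumin, had 12.0 to 14.4 CPM in 8 libraries and 3.61 CPM in control library c, while HNF4A, a hepatocyte transcription factor, had 52.8 to 57.8 CPM and 111 CPM. Markers of other cell types summed to 222 to 227 CPM with UXS1 siRNA, to 222 to 237 CPM with MRPL42 siRNA and to 196, 197 and 457 CPM in control libraries a, b and c, where LUM, a matrix proteoglycan, made up 277 CPM. Weighted equally, the tested genes of this list showed no such rise. Their log2 CPM, each taken relative to the gene's own mean, averaged -0.16 for control c, the lowest value of the 9 libraries. The remaining 8 libraries averaged between -0.08 and 0.13. CD3E, a T cell marker, was at 0 in every library but control c. CD68, a lysosomal protein used as a macrophage marker, was the 1 tested gene of 6 on that list to differ from control, and only without control library c (log2 fold change 0.44 with UXS1 siRNA and 0.54 with MRPL42 siRNA, edgeR adjusted p = 0.00732 and 0.00326). Comparisons of the members with control are therefore given with all 9 libraries and again without control library c, and the part of these differences in the results was not tested.

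Per transcript length the members differed widely in level. Levels are given in TPM, computed here from the deposited counts and 1 length per gene (the median of its principal transcripts in GENCODE 29), so the order of genes depends on those lengths. With UXS1 siRNA the mean TPM ran from SHMT2 (179 ± 4.29) over PSAT1 (165 ± 11.5), MTHFD1 (125 ± 4.82), SHMT1 (99.0 ± 2.21), PSPH (60.0 ± 5.21), PHGDH (29.9 ± 1.91) and MTHFD1L (18.8 ± 1.39) to ALDH1L2 (2.82 ± 0.14; SD, n = 3 for each). In these libraries SHMT2 (175 to 184 TPM) and PSAT1 (155 to 177 TPM) overlapped, and no other neighbours in that order did. The order was the same with MRPL42 siRNA, with no overlap between neighbours among the 8. With control siRNA PSAT1 (278 ± 122 TPM) stood first, before SHMT2 (214 ± 78.5 TPM), and MTHFD1 to ALDH1L2 kept their places (SD, n = 3). The wide control ranges made 5 of the 7 neighbouring pairs overlap, all but MTHFD1 with SHMT1 and MTHFD1L with ALDH1L2.

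No member differed from control at an adjusted p below 0.05 when all 9 libraries were used. In UXS1 siRNA against control 0 of 8 members were called, against a background of 0.0158% of all genes (2 genes). In MRPL42 siRNA against control 0 of 8 were called, with a background of 0% (0 genes by edgeR's quasi-likelihood test, 20.2% at an unadjusted p below 0.05, and 662 genes or 5.8% by DESeq2, which called 0 of 8 members). For UXS1 siRNA DESeq2 called 453 genes (3.97%) and again 0 of 8 members. At an unadjusted p below 0.05, 3 of 8 members passed with UXS1 siRNA (background 17.8%) and 1 of 8 with MRPL42 siRNA. With control library c left out, which sets 3 libraries against 2, 5 of 8 members were lower in each: PHGDH, PSAT1, SHMT2, MTHFD1L and ALDH1L2. The background of genes called lower was then 1.07% for UXS1 siRNA and 0.79% for MRPL42 siRNA. Because the members were chosen with earlier results of these data known, these shares are a description and not a test of the set. The median log2 fold change of the 8 members was -0.35 with UXS1 siRNA and -0.26 with MRPL42 siRNA with all 9 libraries (-0.0047 and -0.011 over all genes tested). It was -0.53 and -0.43 without control library c (-0.0045 and -0.0050 over all genes tested). Both comparisons use the same control libraries, so they are not independent of each other. All 6 siRNA libraries lay below control libraries a and b for 6 of 8 members (background 10.2%), and below all 3 controls for 0 of 8 with either siRNA (background 10.9% for UXS1 siRNA and 10.5% for MRPL42 siRNA). Control library c was the lowest of the 9 libraries for 7 of 8 members (background 31.8%). It was left out because it stood apart in these same data. Without it edgeR's common estimate of spread (biological coefficient of variation) fell from 0.13 to 0.0755. A lower level in such bulk RNA cannot tell fewer cells of a kind from less of that RNA per cell.

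**Figure D1:**
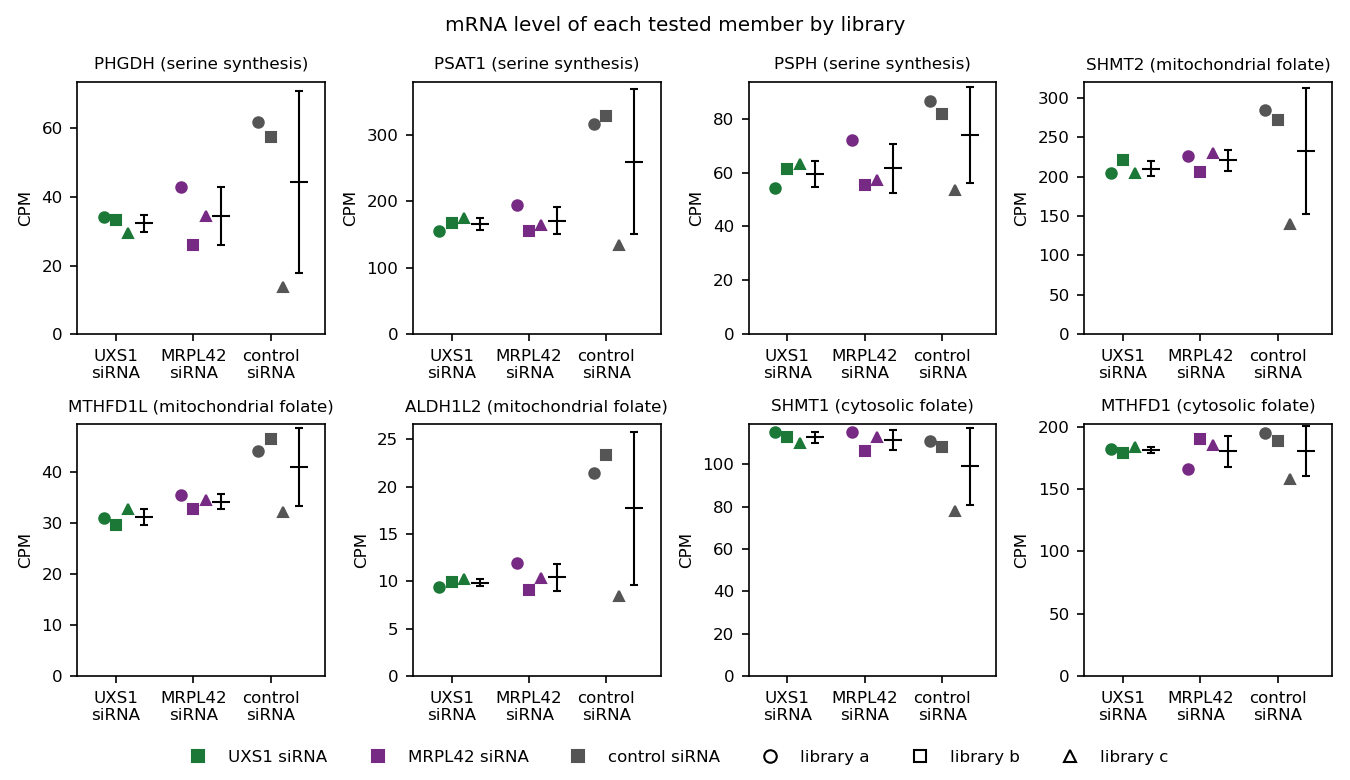
Level of each tested member in CPM (vertical axis, from 0) in the libraries of UXS1 siRNA, MRPL42 siRNA and control siRNA; points are libraries, with shapes for the letters, and the bar is the mean with its SD (n = 3). Control library c (grey triangle) is the lowest of all 9 libraries for 7 of the 8 members, and the UXS1 and MRPL42 siRNA libraries lie below control libraries a and b for PHGDH, PSAT1, PSPH, SHMT2, MTHFD1L and ALDH1L2.

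Serine synthesis comes first in the pathway. PHGDH (ENSG00000092621, chr1:119648411-119744226, plus strand, GRCh38) makes the committed step. It had 34.1, 33.2 and 29.5 CPM in UXS1 siRNA libraries a, b and c, 43.0, 26.1 and 34.4 CPM in MRPL42 siRNA libraries, and 61.8, 57.4 and 13.8 CPM in control libraries. All 6 siRNA libraries lay below control libraries a and b and above control library c, which was 4.31-fold below the mean of a and b. The log2 fold change was -0.46 with UXS1 siRNA (95% interval -1.44 to 0.52) and -0.36 with MRPL42 siRNA (-1.34 to 0.62), with edgeR adjusted p-values of 0.606 and 0.646. Without control library c it was -0.89 (-1.24 to -0.54) and -0.79 (-1.14 to -0.44), with edgeR adjusted p-values of 0.0204 and 0.0429.

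PSAT1 (ENSG00000135069, chr9:78297143-78330093, plus strand), the aminotransferase, had 156, 167 and 175 CPM with UXS1 siRNA, 194, 155 and 164 CPM with MRPL42 siRNA, and 317, 329 and 134 CPM with control siRNA. Controls a and b were higher than every other library and control c was the lowest. The log2 fold change of PSAT1 was -0.65 with UXS1 siRNA (95% interval -1.27 to -0.02) and -0.60 with MRPL42 siRNA (-1.23 to 0.02), neither called (edgeR adjusted p = 0.27 and 0.254). Without control library c it was -0.97 (-1.17 to -0.77) and -0.92 (-1.12 to -0.72), with edgeR adjusted p-values of 0.00129 and 0.00191. GENCODE names 4 pseudogenes of PSAT1, and reads shared with such copies may have been divided in the counting.

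PSPH (ENSG00000146733, chr7:56011051-56051604, minus strand), the phosphatase that completes serine, had 54.2, 61.5 and 63.3 CPM with UXS1 siRNA, 72.2, 55.4 and 57.1 CPM with MRPL42 siRNA, and 86.6, 81.9 and 53.4 CPM with control siRNA. The siRNA libraries lay below controls a and b here too, with control c lowest. The difference was smaller than for the other serine synthesis genes and was not called: with all libraries the log2 fold change was -0.31 with UXS1 siRNA and -0.27 with MRPL42 siRNA (edgeR adjusted p = 0.383 and 0.40), and without control library c -0.51 with UXS1 siRNA (edgeR adjusted p = 0.0554) and -0.46 with MRPL42 siRNA (edgeR adjusted p = 0.0809). With a correction for transcript length added, a setting chosen after the data were seen, these became -0.52 (edgeR adjusted p = 0.0149) and -0.48 (edgeR adjusted p = 0.0285). In that setting 6 of 8 members were called lower with UXS1 siRNA (background 1.5%) and the same 6 with MRPL42 siRNA (background 1.26%). PSPH has 1 named pseudogene that may take some of its reads.

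The mitochondrial folate enzymes followed serine synthesis. SHMT2 (ENSG00000182199, chr12:57229327-57234935, plus strand), which splits serine in mitochondria, had 205, 221 and 205 CPM with UXS1 siRNA, 227, 206 and 230 CPM with MRPL42 siRNA, and 285, 272 and 140 CPM with control siRNA. The siRNA libraries were tightly grouped between control library c and the other controls. The log2 fold change was -0.15 with UXS1 siRNA (95% interval -0.64 to 0.35) and -0.07 with MRPL42 siRNA (-0.56 to 0.42), and without control library c -0.42 (edgeR adjusted p = 0.0119) and -0.34 (edgeR adjusted p = 0.0411). These small differences with all libraries changed sign when control library a was left out, to 0.029 and 0.10, and with MRPL42 siRNA also without control b, to 0.057.

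MTHFD1L (ENSG00000120254, chr6:150865549-151101887, plus strand), the mitochondrial enzyme that releases formate, had 31.0, 29.7 and 32.8 CPM with UXS1 siRNA, 35.5, 32.7 and 34.5 CPM with MRPL42 siRNA, and 44.1, 46.5 and 32.2 CPM with control siRNA. It was the one tested member for which control library c was not the lowest of the 9. Its log2 fold change was -0.39 with UXS1 siRNA (95% interval -0.67 to -0.11, unadjusted p = 0.0116, edgeR adjusted p = 0.191) and -0.26 with MRPL42 siRNA. Without control library c it was -0.55 (edgeR adjusted p = 0.00569) and -0.40 (edgeR adjusted p = 0.0278).

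ALDH1L2 (ENSG00000136010, chr12:105019784-105084577, minus strand), a mitochondrial dehydrogenase that oxidises formyl-tetrahydrofolate, was the least abundant tested member and had the largest differences. It had 9.45, 9.88 and 10.2 CPM with UXS1 siRNA, 11.9, 9.05 and 10.3 CPM with MRPL42 siRNA, and 21.4, 23.3 and 8.43 CPM with control siRNA. Its counts ran from 140 to 428 per library. The log2 fold change was -0.85 with UXS1 siRNA (95% interval -1.55 to -0.15, edgeR adjusted p = 0.222) and -0.76 with MRPL42 siRNA (edgeR adjusted p = 0.222). Without control library c it was -1.19 (-1.44 to -0.95, edgeR adjusted p = 0.00129) and -1.10 (-1.34 to -0.85, edgeR adjusted p = 0.00191).

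The cytosolic folate enzymes were not called with either siRNA, with or without control library c. SHMT1 (ENSG00000176974, chr17:18327860-18363563, minus strand), the cytosolic counterpart of SHMT2, had 115, 113 and 110 CPM with UXS1 siRNA, 115, 106 and 113 CPM with MRPL42 siRNA, and 111, 108 and 78.0 CPM with control siRNA. MTHFD1 (ENSG00000100714, chr14:64388031-64463457, plus strand), which interconverts the cytosolic one-carbon folates, had 182, 179 and 184 CPM with UXS1 siRNA, 166, 190 and 185 CPM with MRPL42 siRNA, and 195, 189 and 158 CPM with control siRNA. SHMT1 overlapped control libraries a and b in both siRNA groups, and MTHFD1 did with MRPL42 siRNA but lay just below them with UXS1 siRNA. With all 9 libraries the log2 fold changes of SHMT1 were 0.18 (95% interval -0.084 to 0.45) with UXS1 siRNA and 0.17 (-0.094 to 0.44) with MRPL42 siRNA, and those of MTHFD1 were 0.0057 (-0.19 to 0.20) and -0.00096 (-0.20 to 0.20). With control library c left out the log2 fold changes of SHMT1 were 0.027 (95% interval -0.10 to 0.15) with UXS1 siRNA and 0.027 with MRPL42 siRNA, and those of MTHFD1 were -0.093 (-0.23 to 0.044) and -0.090. With UXS1 siRNA these intervals without control library c end short of that of SHMT2 (-0.57 to -0.27). With MRPL42 siRNA the interval of MTHFD1 (-0.23 to 0.048) overlapped that of SHMT2 (-0.48 to -0.19). The interval of SHMT1 (-0.099 to 0.15) did not. SHMT1 and MTHFD1 each have 1 named pseudogene.

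**Figure D2:**
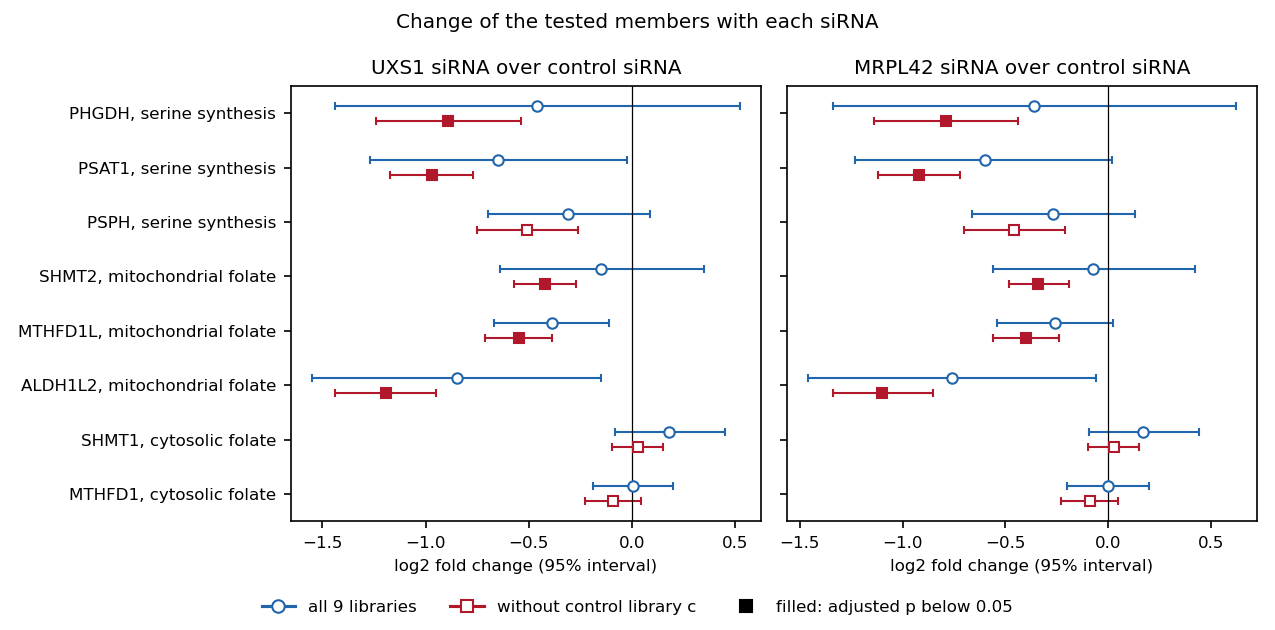
Log2 fold change of each tested member (horizontal axis) with its 95% interval, UXS1 siRNA over control siRNA on the left and MRPL42 siRNA over control siRNA on the right, from all 9 libraries (circles) and without control library c (squares, filled where the edgeR adjusted p is below 0.05). The squares of PHGDH, PSAT1, SHMT2, MTHFD1L and ALDH1L2 are filled in both panels, from -0.42 to -1.19 on the left, while SHMT1 and MTHFD1 sit at 0.027 and -0.093 there.

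The remaining cytosolic and mitochondrial members were at or near 0. ALDH1L1 (ENSG00000144908, chr3:126103562-126197994, minus strand), the cytosolic counterpart of ALDH1L2 and abundant in normal liver, had 0 counts in all 9 libraries, which allows up to 0.134 to 0.194 CPM per library at 3 counts. MTHFD2 (ENSG00000065911, chr2:74198562-74217565, plus strand), the mitochondrial dehydrogenase and cyclohydrolase between SHMT2 and MTHFD1L, had 1 estimated count in UXS1 siRNA library b, 1 in control library c and 0 in the other 7 libraries, so no fold change is given. MTHFD2 is usually well expressed in proliferating cancer cells. Looked up after these values were seen, its neighbour MOB1A had 2428 to 3665 counts per library, SLC4A5, which overlaps the end of MTHFD2 by 1324 bases in RefSeq, had 0.3 to 4 counts, and the paralog MTHFD2L had 24 to 42 counts. GENCODE names 7 pseudogenes of MTHFD2. Their part, and that of the counting, in the near absence of MTHFD2 counts was not tested, and the table is read here as listing MTHFD2 near 0, not as showing that the cells lack it.

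Set against each other, the mitochondrial folate enzymes stood lower relative to the cytosolic ones with both siRNAs than in control libraries a and b. The mean log2 CPM of SHMT2, MTHFD1L and ALDH1L2 minus that of SHMT1 and MTHFD1 was -1.87, -1.81 and -1.79 with UXS1 siRNA, -1.59, -1.85 and -1.73 with MRPL42 siRNA, and -1.19, -1.10 and -1.72 with control siRNA. Control library c lay inside the range of the siRNA libraries, and controls a and b lay above all of them. In group means this was -1.82 ± 0.042, -1.72 ± 0.13 and -1.34 ± 0.34 (SD, n = 3), a description with no test. Each gene counts equally in it. Without control library c, ALDH1L2 had -1.19 with UXS1 siRNA, SHMT2 -0.42 and MTHFD1L -0.55. It is a contrast of folate enzymes, not of all members by compartment. With serine synthesis included, the tested cytosolic members had a median log2 fold change of -0.51 with UXS1 siRNA and -0.46 with MRPL42 siRNA without control library c. The mitochondrial members had -0.55 and -0.40.

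The 2 terms of the folate difference behaved differently. The cytosolic mean held at 7.15 to 7.17 with UXS1 siRNA and 7.12 to 7.18 with MRPL42 siRNA, against 7.20 and 7.16 in controls a and b and 6.80 in control c. The mitochondrial mean was 5.30 to 5.36 with UXS1 siRNA and 5.31 to 5.53 with MRPL42 siRNA, against 6.02, 6.06 and 5.08 in the controls. Serine synthesis ran beside it, at 6.05 to 6.13 with UXS1 siRNA and 5.93 to 6.40 with MRPL42 siRNA, against 6.90, 6.86 and 5.54 in the controls. In control library c all 3 means were the lowest of the 9 libraries.

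**Figure D3:**
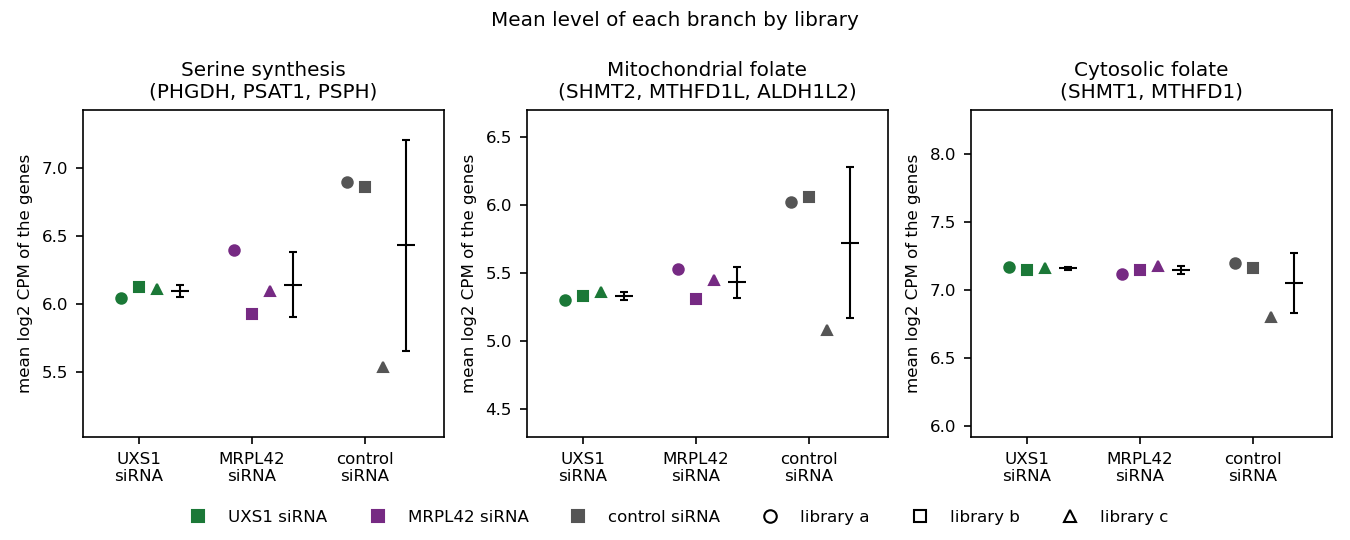
Mean log2 CPM of the tested genes of serine synthesis, mitochondrial folate and cytosolic folate (vertical axes of equal span) in libraries of UXS1 siRNA, MRPL42 siRNA and control siRNA; points are libraries and bars the mean with its SD (n = 3). The cytosolic means lie between 7.12 and 7.20 in every library but control c (6.80), while the mitochondrial means of control libraries a and b (6.02 and 6.06) lie above those of all siRNA libraries (5.30 to 5.53).

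Single pairs of paralogs, taken from the same genes and counts, restate this contrast on the per-length scale and are not separate evidence. The TPM ratio of SHMT2 to SHMT1 was 1.73, 1.90 and 1.81 with UXS1 siRNA, 1.91, 1.88 and 1.97 with MRPL42 siRNA, and 2.49, 2.45 and 1.74 with control siRNA. The mRNA of the mitochondrial enzyme was thus the more abundant of the pair in all 9 libraries, and controls a and b had the highest ratios. For the other pair the mRNA of the cytosolic enzyme was the more abundant: the TPM ratio of MTHFD1 to MTHFD1L was 6.72, 6.91 and 6.44 with UXS1 siRNA, 5.38, 6.70 and 6.16 with MRPL42 siRNA, and 5.07, 4.68 and 5.64 with control siRNA. Here the UXS1 siRNA libraries lay above all controls, while the lowest MRPL42 siRNA library overlapped control library c.

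No member was called different between the siRNAs, and nor was any other gene tested. In UXS1 siRNA against MRPL42 siRNA 0 of 8 members were called (background 0%, that is 0 genes by edgeR and by DESeq2, with 1.72% at an unadjusted p below 0.05). Without control library c the largest difference was that of MTHFD1L, at -0.15 (95% interval -0.29 to 0.0014, edgeR adjusted p = 0.841). PHGDH had -0.10 (-0.43 to 0.22) and ALDH1L2 -0.10 (-0.34 to 0.15), so differences within those intervals cannot be told from none at this spread.

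The promoters of members called lower without control library c, and of the cytosolic folate genes that were not, are shown to let their letters be compared. RefSeq (GRCh38.p14) windows were at hand for 7 of the 10 members and not for PSPH, SHMT2 and ALDH1L2. Printed are the 250 bases before the first listed start, 5′ to 3′ on the strand of the gene. Capitals mark TGATGNAA, a composite C/EBP and ATF4 element, and CACGTG, the E-box bound by MYC and related factors, each searched on both strands.
PHGDH, chr1:119711684-119711933, plus strand: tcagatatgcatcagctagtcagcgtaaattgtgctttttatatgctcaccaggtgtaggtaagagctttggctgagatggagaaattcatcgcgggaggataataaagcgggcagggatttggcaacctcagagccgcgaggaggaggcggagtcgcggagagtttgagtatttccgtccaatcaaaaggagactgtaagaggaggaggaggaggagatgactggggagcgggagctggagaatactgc
PSAT1, chr9:78296875-78297124, plus strand: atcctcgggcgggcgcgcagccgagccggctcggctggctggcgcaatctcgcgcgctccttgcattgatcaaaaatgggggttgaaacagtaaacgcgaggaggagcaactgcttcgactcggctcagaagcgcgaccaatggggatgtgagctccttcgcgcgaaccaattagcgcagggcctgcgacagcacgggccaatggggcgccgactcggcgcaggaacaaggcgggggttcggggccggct
MTHFD1L, chr6:150866236-150866485, plus strand: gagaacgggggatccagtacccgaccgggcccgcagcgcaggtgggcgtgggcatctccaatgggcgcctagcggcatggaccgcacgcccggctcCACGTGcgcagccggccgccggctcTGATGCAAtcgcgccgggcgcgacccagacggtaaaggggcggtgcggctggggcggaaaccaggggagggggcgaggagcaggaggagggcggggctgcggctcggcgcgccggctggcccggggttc
SHMT1, chr17:18363551-18363800, minus strand: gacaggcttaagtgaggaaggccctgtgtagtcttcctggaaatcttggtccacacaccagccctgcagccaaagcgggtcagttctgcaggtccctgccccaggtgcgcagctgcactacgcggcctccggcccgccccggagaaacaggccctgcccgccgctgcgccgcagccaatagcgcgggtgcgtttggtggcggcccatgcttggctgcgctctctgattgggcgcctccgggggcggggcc
MTHFD1, chr14:64388103-64388352, plus strand: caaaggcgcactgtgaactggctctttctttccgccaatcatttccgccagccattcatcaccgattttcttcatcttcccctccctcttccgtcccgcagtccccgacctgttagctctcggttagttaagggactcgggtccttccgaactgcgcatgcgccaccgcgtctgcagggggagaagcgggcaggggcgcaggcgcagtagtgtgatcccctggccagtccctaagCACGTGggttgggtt
ASNS, chr7:97872409-97872658, minus strand: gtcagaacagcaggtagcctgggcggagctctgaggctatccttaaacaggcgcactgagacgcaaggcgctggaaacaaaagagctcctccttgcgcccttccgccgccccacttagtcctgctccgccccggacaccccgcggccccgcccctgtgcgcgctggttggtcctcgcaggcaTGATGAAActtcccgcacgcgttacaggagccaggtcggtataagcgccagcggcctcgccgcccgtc

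ASNS, asparagine synthetase, is shown beside them as a gene whose ATF4 element is well known, and its match lies at 68 to 61 bases before the start. Among the members, MTHFD1L held 1 TGATGNAA match, TGATGCAA at 129 to 122 bases before the start, and 1 CACGTG at 154 to 149. MTHFD1 held CACGTG at 15 to 10 bases before its start. PHGDH, PSAT1 and SHMT1 held neither in this window, and nor did MTHFD2 or ALDH1L1. Of all 35116 promoter windows of this length, 3.14% held TGATGNAA and 6.34% held CACGTG, and a match is a description of letters, not a site in use. MTHFD1L has 4 listed starts and ASNS has 2, of which the first is printed. The windows of MTHFD1L starts 2 and 4 held neither motif, that of start 3 overlaps the printed one and holds the same matches, and the window of ASNS start 2 held neither.

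Genes around the pathway were read from lists chosen with earlier results of these data known. Serine and glycine carriers and genes of the ATF4 axis held lower members without control library c. Folate handling, the users of one-carbon units, purine synthesis and serine or glycine breakdown held 0 called genes with either siRNA and in both fits. These lists had only 9, 6, 6 and 8 tested genes, with GART and ATIC in both the users and the purine list. Over all genes tested, 1.07% with UXS1 siRNA and 0.79% with MRPL42 siRNA were called lower without control library c. With all libraries 0.0158% and 0% were called. At those shares 0 called genes is no result about these lists. The log2 fold changes that follow are given with UXS1 siRNA and then with MRPL42 siRNA. Of 9 tested genes for folate uptake, storage and reduction, the smallest p-values were those of MTHFS, which recycles formyl-tetrahydrofolate (0.41 and 0.36 with all libraries, edgeR adjusted p = 0.178 and 0.165, and 0.35 and 0.31 without control library c), and FPGS, which retains folate in the cell (0.14 and 0.24, and 0.061 and 0.17 without control library c). TYMS, which makes thymidylate, had 0.28 and 0.32 with all libraries and 0.11 and 0.16 without control library c. GART, which uses formyl-folate in purine synthesis, had -0.11 and -0.072, and -0.19 and -0.15 without that library. PPAT, the first enzyme of purine synthesis, had -0.072 and -0.25, and -0.0043 and -0.17 without it. Of the 8 tested breakdown genes GCSH, a subunit of the glycine cleavage system, had 0.24 and 0.17, and 0.17 and 0.11 without it, and SDSL, a serine dehydratase-like enzyme, had 0.37 and 0.39, and 0.25 and 0.28 without it. None of these 7 genes passed the test in either comparison or either fit.

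Of 8 tested serine and glycine carriers, 5 were lower with UXS1 siRNA (background 1.07%) and 4 with MRPL42 siRNA (background 0.79%) without control library c, and 0 with all libraries. SLC6A9, the glycine transporter, had 6.01, 6.53 and 8.03 CPM with UXS1 siRNA, 7.94, 6.01 and 6.81 CPM with MRPL42 siRNA, and 16.7, 16.4 and 6.47 CPM with control siRNA. Controls a and b were the highest, and control c lay within the range of the siRNA libraries. For 7 of the 8 tested members control c was instead the lowest of the 9 libraries. The log2 fold change of SLC6A9 without control library c was -1.29 with UXS1 siRNA and -1.26 with MRPL42 siRNA (edgeR adjusted p = 0.00168 and 0.00247), and with all libraries it was -0.95 and -0.93 (edgeR adjusted p = 0.203 and 0.17). SLC1A4, which carries serine and alanine, had -0.66 and -0.52 (edgeR adjusted p = 0.00242 and 0.0114), against -0.36 and -0.23 with all libraries (edgeR adjusted p = 0.463 and 0.59). The neutral amino acid carriers SLC38A1 (-0.45 and -0.52) and SLC38A2 (-0.45 and -0.47) were also lower without control library c, and had -0.42 and -0.51, and -0.28 and -0.31, with all libraries. SLC38A1 differed from the enzymes in control library c, which at 737 CPM stood with controls a (748 CPM) and b (770 CPM). The median log2 fold change over the list was -0.41 with UXS1 siRNA and -0.37 with MRPL42 siRNA without control library c, and -0.25 and -0.18 with all libraries.

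Of 15 genes of the ATF4 axis, 8 were lower with UXS1 siRNA (background 1.07%) and 6 with MRPL42 siRNA (background 0.79%) without control library c. With all libraries 1 was lower with UXS1 siRNA (background 0.0158%), namely STC2, a secreted glycoprotein (log2 fold change -0.83, edgeR adjusted p = 0.0304), and 0 with MRPL42 siRNA (background 0%). ASNS had 107, 107 and 119 CPM with UXS1 siRNA, 130, 100 and 105 CPM with MRPL42 siRNA, and 243, 261 and 85.3 CPM with control siRNA. As for PSAT1, controls a and b were the highest of the 9 libraries and control c the lowest. ASNS had, without control library c, a log2 fold change of -1.19 with UXS1 siRNA and -1.17 with MRPL42 siRNA (edgeR adjusted p = 0.00118 and 0.00191), and with all libraries -0.82 and -0.81 (edgeR adjusted p = 0.253 and 0.223). SESN2, a stress-induced regulator of mTORC1, had -1.10 and -0.89, and CTH, which makes cysteine, had -0.98 and -0.93, all called, against -0.84 and -0.64 for SESN2 and -0.62 and -0.58 for CTH with all libraries, where neither was called. CHAC1, which degrades glutathione, was called with UXS1 siRNA (-1.32, edgeR adjusted p = 0.0204) and not with MRPL42 siRNA (-0.97, edgeR adjusted p = 0.0768), a difference between siRNAs that was itself not called. With all libraries CHAC1 had -0.88 and -0.53 and was not called. ATF4 mRNA had -0.43 and -0.35 without control library c (edgeR adjusted p = 0.069 and 0.109) and -0.19 and -0.12 with all libraries, and was not called.

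**Figure D4:**
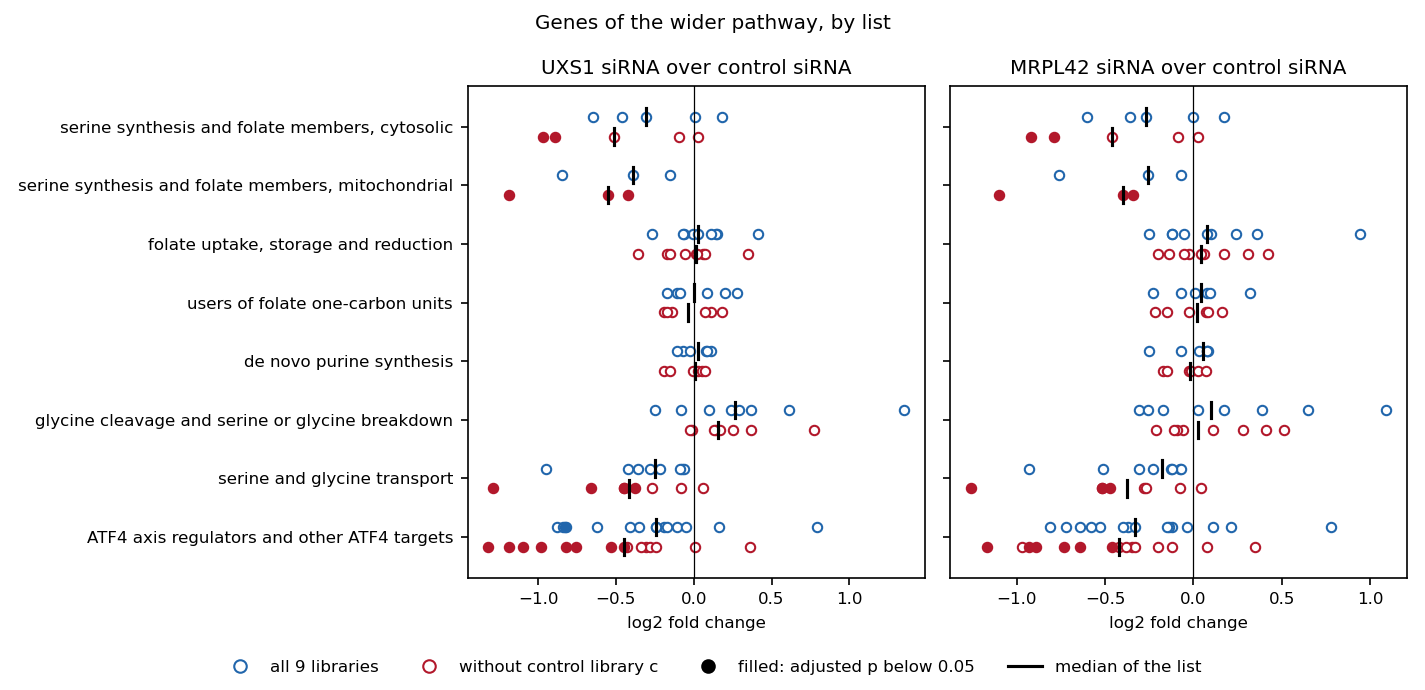
Log2 fold change (horizontal axis) of every tested gene of each list, UXS1 siRNA over control siRNA on the left and MRPL42 siRNA over control siRNA on the right, with all 9 libraries (blue) and without control library c (red); filled points have an edgeR adjusted p below 0.05 and the black bar is the median of the list. Filled points are in the members, the serine and glycine carriers and the ATF4 axis. In the 4 lists between there are 0, where at most 1.07% of all genes tested were called lower.

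The genes most like a member were found by Pearson's r of log2 CPM over the 9 libraries among 12656 other tested genes. ALDH1L2 was most like PSAT1 (r = 0.994), ASNS (0.993) and MARS1 (0.981). PHGDH was most like CBS (0.986), TRIB3 (0.983) and TK2 (0.979), and SHMT2 was most like DDIT4 (0.990), NKX2-2 (0.989) and CBS (0.988). MTHFD1 was most like a separate set, PARS2 (0.967), COA7 (0.962) and TRIM68 (0.957). These values share the same libraries, and control library c is far from the rest for most of them, so they are given as a description of the 9 libraries.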

How the data were processed

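Poly(A) RNA of 9 HCCLM3 libraries was measured. The submitters' processing notes list hg38 as build and fastp, HISAT2, Bowtie2 and edgeR as tools. Of versions, annotation, strand setting and counting program the labels say nothing. The authors deposited estimated counts per gene, of which 83.6% to 84.9% of values above 0 were whole (within 1e-09). A further 9 columns in all, which hold deposited TPM of the libraries, stayed out of every step. The group of a column was read from its name, and the UXS1 columns carry that name with 2 letters exchanged.

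Counts were rounded, filtered with filterByExpr, scaled by TMM and tested in edgeR 4.0.16 (R 4.3.3) with a two-sided quasi-likelihood test in 1 fit over all libraries, with Benjamini-Hochberg adjustment over 12657 genes at 0.05. The design had been written for raw counts. Branch means use log2 CPM with a prior count of 2. TPM were computed from GENCODE 29 lengths, found for 20128 genes. Alternatives were DESeq2 1.42.0, its size factors, no filter, each library left out, a replicate block and a correction for transcript length. The members and the gene lists were chosen with earlier results of these data known. Genes are named by a rule: all members and both targets, per list up to 4 called genes or the 2 with the smallest p, and the 3 genes most like each of 4 members. STC2 and ATF4, MTHFD2L, the neighbours of MTHFD2 and the marker genes other than CD68, FGG and APOH were named after their values were seen. Each of the 9 pairs of libraries within a group differed by more than counting noise (chi-square per gene 3.34 or more). Limits drawn from counts cover counting error only, because amplified copies of a molecule cannot be recognised without molecular identifiers.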

Additional observations from a re-analysis of the deposited data

How the results depend on the processing

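The calls of members depend on control library c. Leaving out each library in turn gave 0 to 354 called genes for UXS1 siRNA against control siRNA and 0 to 814 for MRPL42 siRNA against control siRNA, against 2 and 0 with all libraries. The highest counts came without MRPL42 siRNA library b (354 and 814 genes, no member), and without control library c there were 197 and 170 genes, with 5 members lower in each. The length correction alone gave 8 and 2 genes and no member. Without control library c and with the length correction, a setting chosen after seeing the data, there were 320 and 291 genes and 6 members lower in each. DESeq2 called 453 and 662 genes and no member. With a replicate block on the column letter 0 genes were called in each comparison. No pairing by letter was seen. Deviations of libraries with the same letter correlated at -0.27 to 0.13. For 0 of 9 libraries the best match carried the same letter in both other groups at once, a strict criterion. Control library c weighs heavily on the control deviations, so a weak pairing could be missed.

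Some small differences not called with all 9 libraries changed direction, and the causes were not tested. With UXS1 siRNA against control, MTHFD1 (0.0057) lay between -0.093 and 0.063 over the left-out libraries, at -0.0026 with DESeq2's size factors, -0.003 in DESeq2 and -0.064 without control c and with the length correction, and SHMT2 ran from -0.42 to 0.029. With MRPL42 siRNA against control, MTHFD1 (-0.00096) was 0.001 without the filter, 0.0011 with the block, 0.024 with the length correction and -0.09 to 0.056 over the left-out libraries, and SHMT2 ran from -0.34 to 0.1. Between UXS1 and MRPL42 siRNA, leaving out a library gave -0.26 to 0.084 for PHGDH, -0.11 to 0.052 for PSAT1, -0.11 to 0.078 for PSPH, -0.025 to 0.027 for SHMT1, -0.056 to 0.046 for MTHFD1 and -0.18 to 0.014 for ALDH1L2. MTHFD1 was -0.0012 with DESeq2's size factors and -0.0015 in DESeq2 there.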
